A study of Mus musculus with 2 samples.

Results

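The B cell receptor complex and its coreceptors were examined as 9 genes, Cd79a, Cd79b, Ms4a1, Cd22, Cd72, Cr2, Blk, Blnk and Pax5, on arrays of CD4+ T cells sorted from the spleens of DBA/1 and of C57BL/6 mice. Members were all probe sets whose platform annotation names 1 of these genes and no other, which gave 11 of 22690 probe sets and 9 of 12393 genes. DBA/1 mice are susceptible and C57BL/6 mice resistant to the arthritis that follows immunisation with glucose-6-phosphate isomerase (GPI), and the study looked for molecules abundant on autoreactive CD4+ T cells. Both groups were immunised with GPI, spleens were taken on day 7, and CD4+ T cells were separated by magnetic sorting. Each strain is represented by 1 array, and neither an unimmunised group nor the age and number of mice behind each RNA sample is stated in the labels. No difference below therefore has a replicate check or a test.

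The B cell antigen receptor is a membrane immunoglobulin bound to the signalling chains Cd79a and Cd79b, whose tyrosine motifs are phosphorylated by kinases of the Src family such as Blk when antigen binds. The adaptor Blnk then links the kinase Syk to Btk and phospholipase C gamma 2. Cr2 (CD21), a receptor for complement fragments, works with Cd81 and other partners to strengthen the signal, whereas Cd22 and Cd72 carry inhibitory motifs that recruit the phosphatase Ptpn6. Ms4a1 is the membrane protein CD20, and Pax5 is the transcription factor that maintains B cell identity. Conventional CD4+ T cells signal through the T cell receptor and do not use this complex.

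The measured values are probe set signals of the MAS5 algorithm on a linear scale. The median signal of each array, 37.6 in DBA/1 against 38.04 in C57BL/6, served as a floor, because signals under it are close to background, and a lower signal was set to the floor before a ratio was taken. Where 1 of the signals had to be raised in this way, the ratio is a bound. Of the 9 members, 7 were above the floor on both arrays, Blk was above it in DBA/1 alone, and Pax5 was under it on both. Where a gene had a pair of probe sets, the one with the higher mean log2 signal represented the gene. Repeat measurements exist within these arrays only where several probe sets cover a gene. Over 2325 genes with such a pair the SD of the difference between log2 ratios was 0.43, so that a single probe set carries an error of 0.31. The same error, 0.31, was found for the 1068 pairs in the signal range of the members, and it covers neither mice, sorts nor labelling reactions.

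Among the 8 usable members, those over the floor on either array, 6 had signals at least 2-fold higher in DBA/1 and 1 had a signal at least 2-fold lower there. The 6 were Cd79a, Cd79b, Ms4a1, Cd22, Cr2 and Blk, and the member in the other direction was Cd72. Among all 6936 genes above the floor, the share at least 2-fold higher in DBA/1 was 3.84%, and the share at least 2-fold lower was 1.9%. In the signal range of the members, which held 4032 genes, the shares were 4.46% (higher) and 2.33% (lower). None of the members reached 4-fold, which 0.447% of all genes did in the direction of DBA/1 and 0.26% in that of C57BL/6. The ratio of Blk is a bound, and without a floor its log2 ratio was 1.84, also under 4-fold. The median log2 ratio was 1.08 over the 8 members and 0.10 over all genes above the floor. The members had been chosen with results of these arrays known, so the counts describe them and are not a test. In a bulk sample, fewer cells of a type and less RNA per cell cannot be told apart.

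**Figure D1:**
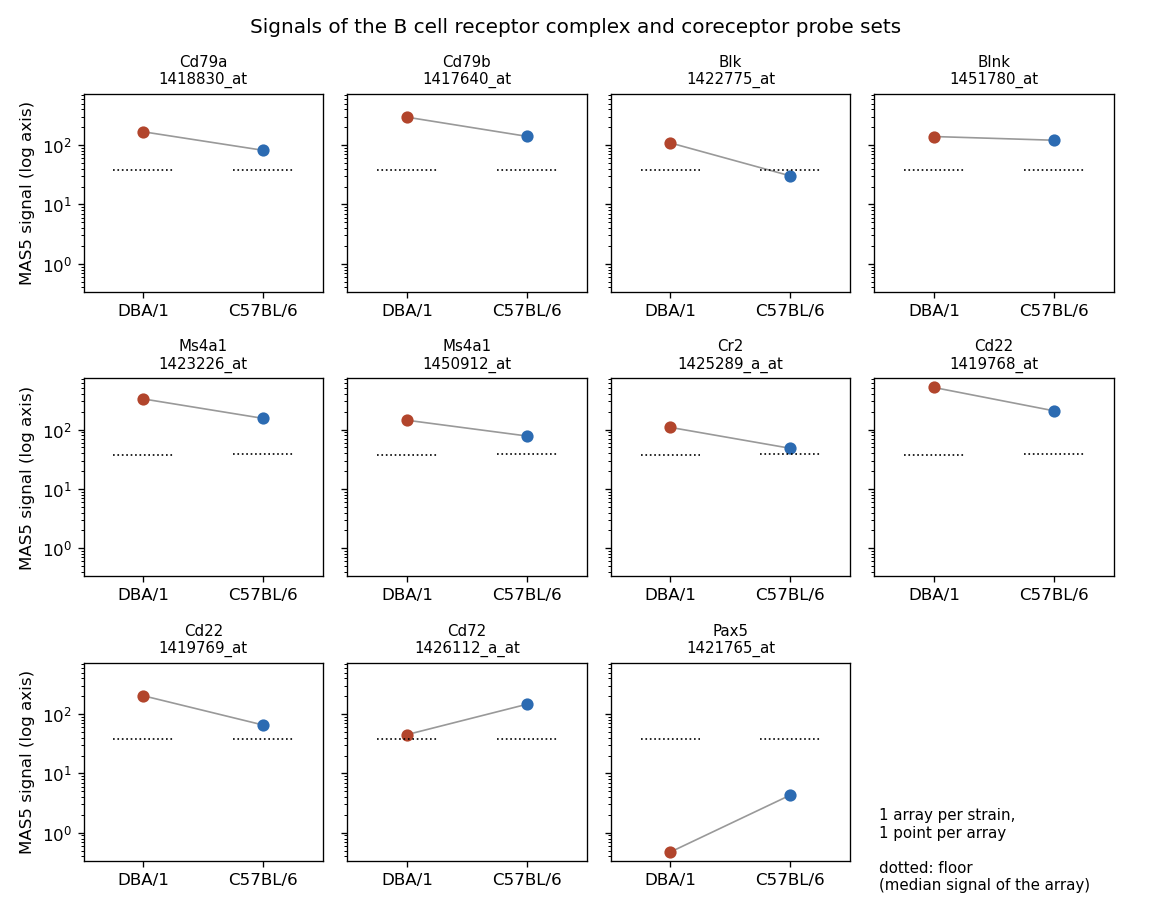
MAS5 signal (log axis) of the 11 member probe sets in DBA/1 and C57BL/6, 1 point per array, with each array's floor dotted. The DBA/1 point is the higher one in 9 panels, Cd72 and Pax5 run the other way, and both Pax5 points lie far under the floor.

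The receptor's signalling chains differed by nearly the same amount. Cd79a (Ig-alpha, probe set 1418830_at) read 167 in DBA/1 against 81.5 in C57BL/6, a 2.05-fold difference or a log2 ratio of 1.04. Cd79b (Ig-beta, 1417640_at) read 295 in DBA/1 against 140 in C57BL/6, 2.10-fold or a log2 ratio of 1.07. Both signals of both genes were above the floor, and the ratios of these obligate partners differed by far less than the error of a probe set. The DBA/1 signal of Cd79a ranked at percentile 74.6 of that array and its C57BL/6 signal at percentile 62.1. For Cd79b the corresponding percentiles were 84.0 and 72.3. Both genes lay close to the 2-fold line: with the median log2 ratio of probe sets above both floors (0.085) removed from all values, their log2 ratios were 0.95 for Cd79a and 0.99 for Cd79b.

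The kinase and the adaptor that act next differed from each other. Blk (1422775_at), a Src family kinase, read 108 in DBA/1 against 30.3 in C57BL/6. The C57BL/6 signal lay under the floor, so the gene was at least 2.85-fold higher in DBA/1, a log2 ratio of at least 1.51. Blnk (1451780_at), the adaptor downstream of Syk, read 139 in DBA/1 against 121 in C57BL/6. This is a 1.15-fold difference, or a log2 ratio of 0.21, which is within 1 probe set error. Among the usable members Blnk alone was within 2-fold, and its ratio exceeded that of 61.5% of all genes above the floor, against 98.9% for Blk.

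Ms4a1 (CD20), a membrane protein of mature B cells, was measured by a pair of probe sets designed on the same sequence record. The brighter one (1423226_at) read 328 in DBA/1 against 154 in C57BL/6, a 2.13-fold difference or a log2 ratio of 1.09. The other (1450912_at) read 143 in DBA/1 against 77.9 in C57BL/6, 1.84-fold or a log2 ratio of 0.88. The ratios of the pair differed by 0.21, less than the SD of 0.43 between pairs in general, and both were higher in DBA/1, although they fall on different sides of the 2-fold line.

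The coreceptors did not move together. Cr2 (CD21 and its splice form CD35, 1425289_a_at) read 109 in DBA/1 against 48.3 in C57BL/6, a 2.25-fold difference or a log2 ratio of 1.17. The C57BL/6 signal was only slightly above the floor of that array, at percentile 53.4. The bulk values do not tell which cells carried the transcript. Cd22, an inhibitory lectin of the Siglec family, read 511 in DBA/1 against 207 in C57BL/6 (1419768_at), at percentiles 90.8 and 79.3 of the arrays. The difference was 2.47-fold, a log2 ratio of 1.30. Its second probe set (1419769_at) read 203 in DBA/1 against 65.2 in C57BL/6, 3.11-fold or a log2 ratio of 1.64. The pair differed by 0.33, within the SD between pairs, and both were beyond 2-fold in the same direction.

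Cd72 was the member with the opposite difference. This inhibitory coreceptor of the C-type lectin family, first known as the strain alloantigen Lyb-2, read 45.0 in DBA/1 against 146 in C57BL/6 (1426112_a_at). The signal was 3.24-fold higher in C57BL/6, a log2 ratio of -1.70, and 0.389% of all genes above the floor had a lower ratio. The DBA/1 signal was near the floor, at percentile 52.5, while the C57BL/6 signal was at percentile 73.1. The inhibitory members Cd72 and Cd22 thus lay on opposite sides of 0, each by more than the error of a probe set. That error was not estimated separately for signals near the floor. Cd72 has 1 probe set on the array, so its direction rests on a single measurement on each array, and the suffix of this probe set denotes several transcripts of 1 gene. The sequences of its probes were not used here.

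Pax5 (1421765_at), which activates many of the other members in B cells, read 0.475 in DBA/1 against 4.31 in C57BL/6. Both values lay far under the floor, so no ratio is given and no statement about the strains follows. Ebf1, the factor that acts with Pax5 in early B cells, was likewise under the floor on both arrays in the probe set used, the brightest of its 3.

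**Figure D2:**
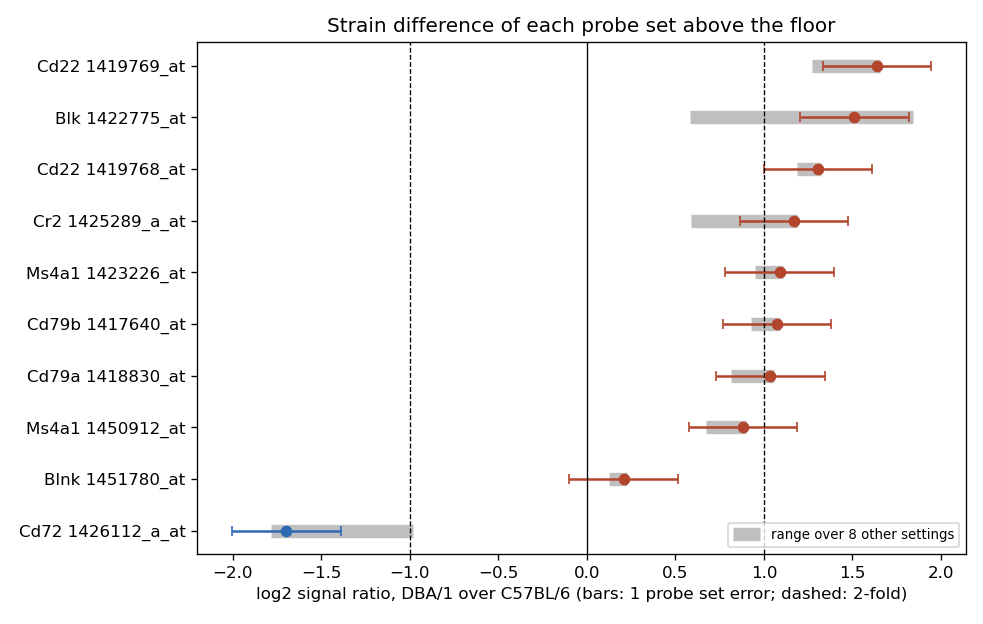
Log2 signal ratio of DBA/1 over C57BL/6 for the 10 member probe sets above the floor on at least 1 array; bars are 1 probe set error (0.31), grey bands the range over 8 other settings, dashed lines 2-fold. Cd22 lies at 1.30 and 1.64, Cd72 alone lies below 0 at -1.70, and the band of Blk reaches down to 0.58, which is a bound.

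**Figure D3:**
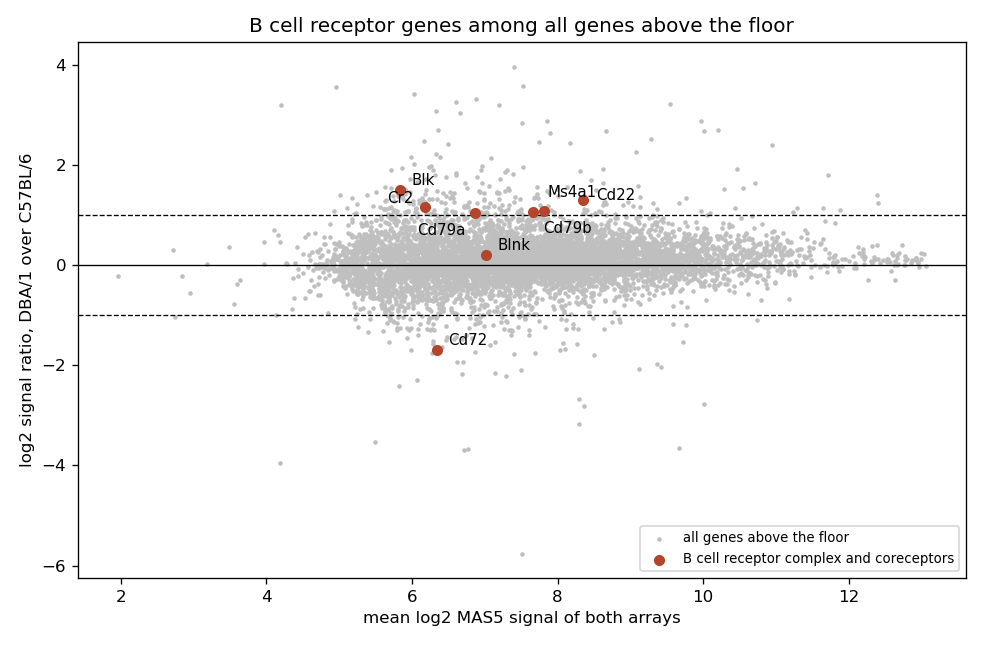
Log2 signal ratio of DBA/1 over C57BL/6 against the mean log2 signal of both arrays for the 6936 genes above the floor on at least 1 array, with the 8 usable members in red and 2-fold dashed. The 6 members beyond 2-fold lie in the upper part of the cloud, where 3.84% of all genes lie at or beyond 2-fold. Blnk lies at 0.21, and Cd72 lies in the lower part at -1.70, with 0.389% of genes lower.

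The scaling of the arrays bears on which members pass 2-fold. Under all 5 scalings examined, Blk, Cd22 and Cr2 stayed beyond 2-fold towards DBA/1 and Cd72 beyond 2-fold towards C57BL/6. Cd79a, Cd79b and Ms4a1 lay on either side of the line: after lowess their log2 ratios were 0.97 for Cd79a, 0.99 for Cd79b and 0.997 for Ms4a1. The count of members at least 2-fold higher was then 3. With the median log2 ratio removed it was 4, and 2.91% of all genes were as far above in DBA/1 and 2.41% as far below. Members with a higher signal at or above percentile 75 of its array were Cd79b, Ms4a1 and Cd22, each at least 2-fold higher in DBA/1. Cd79b and Ms4a1 passed through their DBA/1 signal alone, and only Cd22 reached the percentile on both arrays. The direction of members kept by this rule is therefore no separate support. Cd72 did not reach that minimum. The treatment of low signals mattered for the dimmer members. With the floor raised to percentile 60 of each array, the log2 ratio was at least 0.58 for Blk, at least 0.59 for Cr2 and at most -0.98 for Cd72. The lower signal of each gene was then raised to the floor, so these bounds do not show smaller differences. With 32 added to every signal in place of a floor, only Cd22 (1.18) and Blk (1.17) stayed at least 2-fold higher in DBA/1, and Cd72 (-1.21) stayed at least 2-fold lower.

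The promoters of 4 members are shown because the genes differ in their strain pattern: Cd79a and Cd22 had higher signals in DBA/1, Cd72 had a lower signal there, and Blnk differed little. The sequences are from RefSeq on build GRCm38.p6, which is a C57BL/6J genome, and run 5′ to 3′ on the gene's strand from 250 bases before the annotated start to 50 bases after it. Capitals mark matches, on either strand, to the octamer ATTTGCAT bound by POU factors, the EBF half-site pair CCCNNGGG, the core GGAAGT of ETS factors such as PU.1, and the E-box CAGGTG of E2A.
Cd79a (chr7:24897247-24897546, plus strand): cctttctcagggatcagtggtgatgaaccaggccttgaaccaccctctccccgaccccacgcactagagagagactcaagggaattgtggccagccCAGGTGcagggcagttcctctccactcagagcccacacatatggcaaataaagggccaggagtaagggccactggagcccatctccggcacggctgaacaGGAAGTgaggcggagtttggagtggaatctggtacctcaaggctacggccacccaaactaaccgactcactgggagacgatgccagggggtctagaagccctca
Cd22 (chr7:30878979-30879278, minus strand): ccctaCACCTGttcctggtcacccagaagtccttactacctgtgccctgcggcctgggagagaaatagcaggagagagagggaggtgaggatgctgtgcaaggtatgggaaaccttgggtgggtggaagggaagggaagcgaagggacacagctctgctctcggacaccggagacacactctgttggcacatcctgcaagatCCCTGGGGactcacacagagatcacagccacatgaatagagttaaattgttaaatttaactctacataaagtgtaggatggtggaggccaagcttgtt
Cd72 (chr4:43454577-43454876, minus strand): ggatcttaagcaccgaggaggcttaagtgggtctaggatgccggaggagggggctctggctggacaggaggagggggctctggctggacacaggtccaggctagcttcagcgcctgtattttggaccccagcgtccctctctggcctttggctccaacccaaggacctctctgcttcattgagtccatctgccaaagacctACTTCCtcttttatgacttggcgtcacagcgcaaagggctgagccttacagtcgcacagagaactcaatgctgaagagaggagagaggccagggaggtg
Blnk (chr19:40994172-40994471, minus strand): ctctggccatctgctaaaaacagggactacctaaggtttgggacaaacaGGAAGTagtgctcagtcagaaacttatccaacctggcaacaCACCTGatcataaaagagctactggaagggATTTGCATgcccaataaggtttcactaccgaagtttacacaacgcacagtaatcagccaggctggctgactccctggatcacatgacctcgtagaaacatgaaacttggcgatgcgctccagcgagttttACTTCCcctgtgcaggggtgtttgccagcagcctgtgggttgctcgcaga
Promoters were found for 6 of the 9 members, these 4 and those of Cr2 and Pax5. The octamer was present in 1 of the 6, Blnk, with its first base 130 bases before the start, and in 1.74% of all 32851 promoters in the table. The EBF letters were present in 1 of the 6, Cd22, and in 13.7% of all promoters. Only exact matches were counted, so a site that departs from these letters, in Cd79a or another promoter, would be missed. The ETS core was present in 4 of the 6, against 23.8% of all promoters, and the E-box in 4 of the 6, against 20.2%. Cd72 held the ETS core and neither the octamer, the EBF letters nor the E-box, while Pax5 held none of these motifs. The letters of the motifs describe these windows only, they were chosen after the members' values were known, and no binding was measured. No DBA/1 sequence was compared, so a relation of these motifs to the strain difference was not tested.

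Other B cell surface genes had a lower median log2 ratio than the members, 0.69 against 1.08, though Ccr6 exceeded every member. Of 20 listed genes 16 were usable, 15 of them with a log2 ratio above 0 and 4 at least 2-fold higher. Of all 6936 genes above the floor, 4206 had a log2 ratio above 0 and 2730 below, so an even split is not the reference. The largest were the chemokine receptor Ccr6 (605 in DBA/1 against 165 in C57BL/6, 3.67-fold), the activation marker Cd83 (533 in DBA/1, 205 in C57BL/6, 2.60-fold), the inhibitory Fc receptor Fcgr2b (197 in DBA/1, 88.2 in C57BL/6, 2.23-fold) and the low-affinity IgE receptor Fcer2a. Fcer2a read 82.9 in DBA/1 against 29.1 in C57BL/6, where it did not reach the floor, a log2 ratio of at least 1.12. Of these, Ccr6 and Cd83 are also expressed by T cells. The other probe sets of Fcgr2b had log2 ratios of 0.64, 0.93 and at least 1.31, so they fall on both sides of 2-fold. Cd81, the partner of Cr2, read 461 in DBA/1 against 334 in C57BL/6, a log2 ratio of 0.47.

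The kinases, adaptors and phosphatases downstream of the receptor, most of which T cells or myeloid cells express too, differed less. None of 20 usable genes was beyond 2-fold, 13 had a log2 ratio above 0 and 7 below, and the median was 0.17. Over all genes above the floor, 4206 of 6936 were above 0 and the median was 0.10, so these counts show no lean of their own. Lat2, an adaptor of B cells and myeloid cells, read 93.3 in DBA/1 against 48.0 in C57BL/6, a log2 ratio of 0.96. Plcg2 (phospholipase C gamma 2) read 265 in DBA/1 against 144 in C57BL/6, a log2 ratio of 0.88. Syk, the kinase that binds Cd79a and Cd79b, read 241 in DBA/1 against 138 in C57BL/6, a log2 ratio of 0.80. Its other probe sets lay at 0.83 and at least 0.55. The adaptor Shc1 had a log2 ratio of -0.61.

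B cell transcription factors went both ways, with a median log2 ratio of -0.016 over 14 usable genes, 6 above 0 and 8 below. Of all 6936 genes above the floor, 4206 were above 0. Spi1 (PU.1), which myeloid cells express strongly, read 387 in DBA/1 against 138 in C57BL/6, 2.81-fold. Spib, its relative in B cells and plasmacytoid dendritic cells, read 105 in DBA/1 against 215 in C57BL/6, a log2 ratio of -1.03. The difference of Spib is in the direction of Cd72, which is not particular to it, since Spib is among the 8 factors below 0. Mef2c (0.90) and Irf4 (0.86) were higher in DBA/1, but a further probe set of Mef2c lay at -0.36.

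Immunoglobulin transcripts, which complete the receptor, gave no single direction. Of 11 probe sets annotated to Ighm, 7 were usable, 4 at least 2-fold higher in DBA/1, 1 at least 2-fold lower and 2 within 2-fold. Their log2 ratios ran from at most -3.07, a bound because that DBA/1 signal lay under the floor, to 4.35. The brightest read 3304 in DBA/1 against 3326 in C57BL/6. Over the 5 usable genes of immunoglobulin and plasma cell function the median log2 ratio was 0.43, led by Jchain (0.84), the joining chain of secreted IgM, and Iglv1 (0.56), with the plasma cell factors Prdm1 (0.43) and Xbp1 (0.21) after them.

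MHC class II genes, which B cells share with dendritic cells and macrophages, had a median log2 ratio of 0.84 over 9 usable genes. Of these, 3 were at least 2-fold higher and 1 at least 2-fold lower in the probe set used. Further probe sets of H2-Aa (1.64) and H2-Ab1 (1.44) were beyond 2-fold as well, where those used lay at 0.16 for H2-Aa and 0.89 for H2-Ab1. The log2 ratio was 1.49 for the transactivator Ciita and 1.16 for H2-Oa, a chain of the peptide-loading modulator. H2-Ea, deleted in part in C57BL/6, had a log2 ratio of at least 3.55, and H2-Eb1 one of -3.65.

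**Figure D4:**
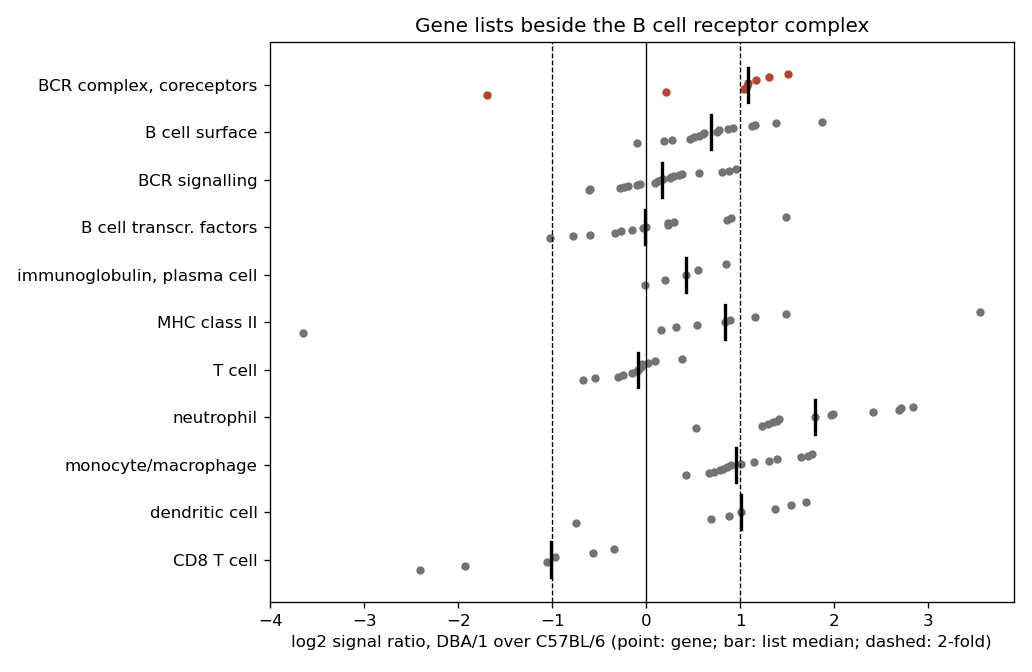
Log2 signal ratio of DBA/1 over C57BL/6 for each usable gene of the 11 lists, with the list median as a bar and 2-fold dashed. The medians of the receptor complex (1.08), the neutrophil list (1.79), the dendritic cell list (1.00) and the monocyte and macrophage list (0.96) lie close to or beyond 2-fold, that of the CD8 T cell list (-1.01) lies beyond 2-fold in the other direction, and that of the T cell list (-0.082) lies near 0.

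Genes of other cells moved on the same arrays. T cell genes, which check the sorted cell type, were bright on both: their summed signal over 13 genes was 16137 in DBA/1 against 17570 in C57BL/6, with a median log2 ratio of -0.082, and none was beyond 2-fold in the probe set used. The widest log2 ratios were those of Zap70 (-0.67), Thy1 (-0.54), Trat1 (0.38) and Cd28 (-0.30), and another probe set of Cd247 lay at -1.13. The signals of the sort marker Cd4 were 913 (DBA/1) and 857 (C57BL/6), those of Cd3e 747 (DBA/1) and 791 (C57BL/6). Neutrophil genes summed to 34982 in DBA/1 against 10771 in C57BL/6, and 12 of 13 usable genes exceeded 2-fold towards DBA/1, with Cd177 at 2.84, Lcn2 at 2.71, Ltf at 2.69 and Camp at 2.41 on the log2 ratio scale. Cxcr2 was under the floor on both arrays.

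Monocyte and macrophage genes summed to 11807 in DBA/1 against 5262 in C57BL/6, with 7 of 14 usable genes at least 2-fold higher, led by Hmox1 (1.77), Fcgr3 (1.73), Lyz2 (1.65) and Slc40a1 (1.39). Dendritic cell genes summed to 5001 in DBA/1 against 2241 in C57BL/6, with 4 of 7 at least 2-fold higher, namely Fscn1 (1.70), Cst3 (1.54), Cd209a (1.37) and Itgax (1.004). CD8 T cell genes summed to 405 in DBA/1 against 1043 in C57BL/6, with 3 of 6 at least 2-fold lower, all 6 below 0 and a median log2 ratio of -1.01. Cd8b1 was at least 5.30-fold lower in DBA/1, and Nkg7 (-1.92), Klrk1 (-1.06) and Ctsw (-0.97) followed. The 9 members themselves summed to 1702 in DBA/1 against 932 in C57BL/6, a ratio of 1.83. The ratios of the neutrophil sum (3.25), the monocyte and macrophage sum (2.24) and the dendritic cell sum (2.23) were larger and that of the T cell sum was 0.918. Sums follow the brightest probe sets: by the median log2 ratio the members (1.08) stood below the neutrophil list (1.79) and close to the dendritic cell (1.00) and the monocyte and macrophage lists (0.96). The order among these close medians depended on the setting. With the floor at percentile 60 they were 0.81 for the members, 1.19 for the dendritic cell list and 0.88 for the monocyte and macrophage list. What part such cells had in the members' differences was not tested, and with 1 array per strain, strain, sort and array cannot be told apart.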

How the data were processed

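RNA of splenic CD4+ T cells was measured on 2 oligonucleotide arrays, 1 per strain. Per the labels' protocols, 3 µg of total RNA was converted to biotin-labelled cRNA from an oligo(dT)-T7 primer. The deposited values are probe set intensities; MAS5 is named in the submitters' processing notes, with no version or scaling target stated. The deposited table holds 22690 probe sets, 64 of them controls; the platform annotation gave 1 gene symbol for 20380, several for 691 and none for 1555. Signals were used as deposited, with the floor and the probe set rule stated above, and log2 ratios were DBA/1 over C57BL/6. A limit of 2-fold stood in for a test, since 1 array per strain allows none, and the number of arrays limits the precision. The named genes were all members, the 4 usable genes of each other list with the largest absolute ratio, and Ighm, Cd3e and Cd4; Cd81, Cd247, Ebf1 and Cxcr2 were named after their values were seen, and 1 further gene of the rule is not reported here. The members and lists were chosen with earlier results of these data known. Of 167 entries on 11 lists, 140 were matched to a probe set. Calculations used Python 3.11.15, numpy 2.4.6, pandas 2.3.3 and statsmodels 0.14.6 (lowess, span 0.3). Alternatives were 4 other scalings, 4 other treatments of low signals, 3 probe set rules, other folds and a minimum signal.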

Additional observations from a re-analysis of the deposited data

How the results depend on the processing

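All 80 values of the 10 usable member probe sets under 8 alternatives kept their sign, and 71 moved by less than the probe set error. The kept signs are a weak check, since the 4 treatments of low signals could hardly reverse a sign when the floors are nearly equal. The median log2 ratio of the members ranged from 0.81 to 1.10 over 11 alternatives. The count of 6 members at least 2-fold higher in DBA/1 became 3 after lowess, 2 with log2(signal + 32), 3 with a minimum signal at percentile 75 and 0 at a 4-fold limit. It was 4 after quantile normalization, with the floor at percentile 60 and with the median log2 ratio removed, a scaling added after the data were seen. Apart from the 4-fold limit and the removed median, the share of all genes was not calculated under these alternatives. Whether the members or all genes changed there cannot be told from the counts. The count of 1 member at least 2-fold lower, Cd72, became 0 at a 4-fold limit and with the minimum signal at percentile 75. It was also 0 with the floor at percentile 60, where the log2 ratio of Cd72 is a bound, at most -0.98. Without probe sets of suffix a, s or x it was 0 as well, since the single probe set of Cd72 carries one. Values near the floor depended most on it: Blk ranged from 0.58 to 1.84 and Cr2 from 0.59 to 1.19. The low end of each range, with the floor at percentile 60, is a bound. The median of the B cell transcription factors changed sign, between -0.10 and 0.23. The median log2 ratio that the added scaling removed was 0.085. No paired analysis was possible because each strain has 1 array.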
